A study of Mus musculus with 2 samples.

Results

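Granzymes C to G are 5 neighbouring genes of mouse serine proteases, Gzmc, Gzmd, Gzme, Gzmf and Gzmg, and their RNA was followed cell by cell in 2 single-cell libraries from tumours. They were taken as the 5 of 33696 rows that carry these symbols, 1 row for each symbol. The genes and the gates below were chosen by the members' own UMIs in these 2 libraries, with their WT and KO levels known, so those levels are a description. LLC, the Lewis lung carcinoma line of the mouse, was grown in wild-type mice (library Dusp2 WT, here WT) and in mice without Dusp2 (library Dusp2 KO, here KO). Dusp2 encodes a nuclear phosphatase of MAP kinases that is induced in activated lymphocytes. The labels describe the cells of both libraries as lymphocytes that had infiltrated a tumour. Not given in the sources used here are the age and strain of the mice, the number of animals behind a library, the sort of the cells and the deleted part of Dusp2. The molecule is labelled as total RNA in the WT library but as polyA RNA in the KO library. Genotype therefore cannot be told apart from animal, tumour or library preparation, and no test was made with 1 library per genotype.

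Granzymes are stored in the granules of killer lymphocytes and enter target cells through pores that perforin makes. Granzyme B cuts after aspartate and starts caspases, and granzyme A is a trypsin-like protease. Gzmc to Gzmg arose by duplication next to Gzmb, are found in rodents, and are far less studied. In T cells they are known as late genes, induced after strong stimulation with interleukin 2. Gzmc is also known from tissue-resident innate lymphocytes of mice, among them group 1 innate lymphoid cells (ILC1).

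The 5 genes lie in a row on chromosome 14, on the minus strand, each with 5 exons (GRCm38, mm10, GENCODE M21). In rising coordinates the order is Gzme (56117626 to 56120625), Gzmd (56129556 to 56132608), Gzmg (56156582 to 56159579), then Gzmn, then Gzmf (56205263 to 56211417) and Gzmc (56231441 to 56234656). The members span 117.031 kb, and Gzmb begins 24182 bases beyond the end of Gzmc. Their promoters are near copies. Over the 300 bases around each start site that RefSeq gives (GRCm38.p6, all 5 members matched), any pair of members was identical at 79.7% to 93.7% of bases. With the Gzmb promoter the identity was 49.0% to 52.7%. The 90 bases below, which lie just upstream of the start sites, surround the longest run that all 5 members share, 20 bases. Capitals mark the place of TGACGTCA, the cyclic AMP response element.

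Gzmc: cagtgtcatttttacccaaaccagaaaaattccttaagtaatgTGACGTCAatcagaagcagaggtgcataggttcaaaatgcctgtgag

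Gzmd: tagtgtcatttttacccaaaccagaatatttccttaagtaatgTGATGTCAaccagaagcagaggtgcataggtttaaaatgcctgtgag

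Gzme: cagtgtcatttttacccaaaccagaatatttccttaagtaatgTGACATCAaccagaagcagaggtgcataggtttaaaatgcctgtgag

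Gzmf: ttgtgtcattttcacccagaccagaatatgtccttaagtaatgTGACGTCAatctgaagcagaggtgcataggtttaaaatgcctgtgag

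Gzmg: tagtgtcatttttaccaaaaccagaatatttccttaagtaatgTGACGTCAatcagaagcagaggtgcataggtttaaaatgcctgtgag

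The windows are at chr14:56234668-56234757 for Gzmc, chr14:56132608-56132697 for Gzmd, chr14:56120641-56120730 for Gzme, chr14:56211443-56211532 for Gzmf and chr14:56159610-56159699 for Gzmg, all on the minus strand. Gzmc, Gzmf and Gzmg hold the 8 letters unaltered. Counted from 1 at the 5′ end of the element, Gzmd differs by C4T and Gzme by G5A. The element was found in 1.79% of 32851 promoters of the same length. The Runx motif TGTGGT, searched on both strands, was in all 5 members and in 16.8% of promoters. The NFAT core TTTCC was in 4 of the 5, all but Gzmc, and in 61.3% of promoters. The AP-1 motif TGANTCA was in no member and in 7.81% of promoters. These are matches of letters and do not show that a factor binds there.

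The 3′ ends, which 10x 3′ libraries count, are alike as well. Over the last 500 bases of the transcripts Gzmd and Gzme were identical at 92.8% of bases, while Gzmc was at 58.6% to 61.6% identity with the other members. Of the 50-base windows in those ends, 20.6% in Gzmd, 18.2% in Gzme, 14.4% in Gzmg, 7.10% in Gzmf and 0% in Gzmc occurred unaltered in another of the 7 neighbouring granzymes. With windows of 90 bases the shares were 1.70% for Gzmd and Gzme and 0% for the others. The separate levels of Gzmd, Gzme and Gzmg are therefore less certain than that of Gzmc, and the sum over the 5 genes is given beside them.

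The NK gate takes cells with at least 1 UMI (1 counted RNA molecule) of Ncr1 or Klrb1c, both NK receptors, and none of Cd3e, a chain of the T-cell receptor complex. The CD8 T gate takes cells with at least 2 UMIs of Cd8a and Cd8b1 together and at least 1 of Cd3e. The WT library held 9890 barcodes and 113873249 UMIs, the KO library 12744 and 101532711, with 31 barcodes in both. After the filters 9002 and 11359 cells remained, at median depths of 8432 and 4852 UMIs. The NK gate held 474 WT and 222 KO cells, at median depths of 5490.5 and 5012.5 UMIs, and the CD8 T gate 415 and 608, at 5658 and 5502. All 14 NK markers were detected in at least 10% of the NK-gated cells of both libraries, and all 10 CD8 T markers in the CD8-gated cells. Dusp2 stood at 865 CPM (UMIs of the gene per 1000000 UMIs of the gate, 95% interval 833 to 898) in WT and 2.04 (0.422 to 5.97) in KO NK-gated cells. In CD8-gated cells it was 572 (544 to 601) against 13.6 CPM (10.2 to 17.7). Each interval is at the 95% level and reflects only the counting of molecules.

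The NK-gated cells carried most of the RNA of these genes, and more of it in KO. The 5 members together stood at 3064 CPM (3003 to 3125) in WT and 17218 (17007 to 17432) in KO. On the log2 scale the ratio of KO over WT was 2.49 (2.46 to 2.52), and 1.66 when each cell was first thinned to 2000 UMIs and then gated. This was 0.306% of all RNA molecules of the WT gate and 1.72% of those of the KO gate. All 5 members were at least 2-fold higher in KO. Of the 7149 genes with at least 50 UMIs in 1 library of this gate, 0.769% were that much higher and 4.91% that much lower. The contrast was known when the genes were chosen, so the count stands as a description.

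Gzmc, the member with the most UMIs in this gate (counting of 3′ ends does not scale with transcript length), was at 2411 CPM (2358 to 2466) in WT and 10171 (10009 to 10336) in KO, log2 2.08 (2.04 to 2.12). It was found in 127 WT cells (26.8%, 22.9 to 31.0) and 71 KO cells (32.0%, 25.9 to 38.6). By counting alone, the intervals of the shares overlap and those of the levels do not. A WT cell that carried Gzmc had a median of 9 UMIs and a KO cell 83.

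Gzmd and Gzme, the closest pair by sequence, had nearly the same values. Gzmd was at 335 CPM (315 to 355) in WT and 2109 (2036 to 2185) in KO, log2 2.66 (2.56 to 2.76). Gzme was at 299 (280 to 319) and 1717 CPM (1651 to 1785), log2 2.52 (2.41 to 2.63). Gzmd was in 38 WT and 41 KO cells, 8.02% (5.74 to 10.8) and 18.5% (13.6 to 24.2) of the gate. For Gzme the numbers were 38 and 40 cells. The median of the cells with Gzmd was 16 UMIs in WT and 49 in KO, and of those with Gzme 16 and 36. Levels per cell and shares of cells were thus both higher in KO for this pair.

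Few molecules of Gzmf and Gzmg were found in WT NK-gated cells. Gzmf had 33 UMIs in WT, in 5 cells with 24, 5, 2, 1 and 1. In KO it had 4002 UMIs in 29 cells, of which 7 cells carried 1339, 877, 436, 426, 316, 294 and 152, and no other cell more than 24. Its level was 10.4 CPM (7.13 to 14.5) in WT and 2727 (2643 to 2813) in KO, log2 8.04 (7.55 to 8.58). The share of cells with a Gzmf UMI was 1.05% (0.343 to 2.44) against 13.1% (8.93 to 18.2). The ratio was 7.52 without the cell of each library with the most C to G UMIs, which in WT had 0 Gzmf UMIs. The WT cell with 24 Gzmf UMIs thus stayed in. With cells that also carry macrophage or B-cell markers left out the ratio was 9.32. The KO level thus rests on few cells, while the share of cells with the gene does not.

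Gzmg had 26 UMIs in 6 WT cells, with 15, 5, 3, 1, 1 and 1, and 725 UMIs in 14 KO cells. The 3 highest KO cells had 169, 164 and 137 UMIs. Its level was 8.16 CPM (5.33 to 11.96) in WT and 494 (459 to 531) in KO, log2 5.92 (5.36 to 6.54). Gzmg was the least abundant member in this gate in both libraries. Thinning before gating gave ratios of 1.42 for Gzmc, 2.17 for Gzmd, 2.29 for Gzme and 2.75 for Gzmg. Gzmf then had 0 UMIs in WT, a ratio of 5.23 when that count was taken as 3 UMIs, with a lower counting limit of 4.87.

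**Figure D1:**
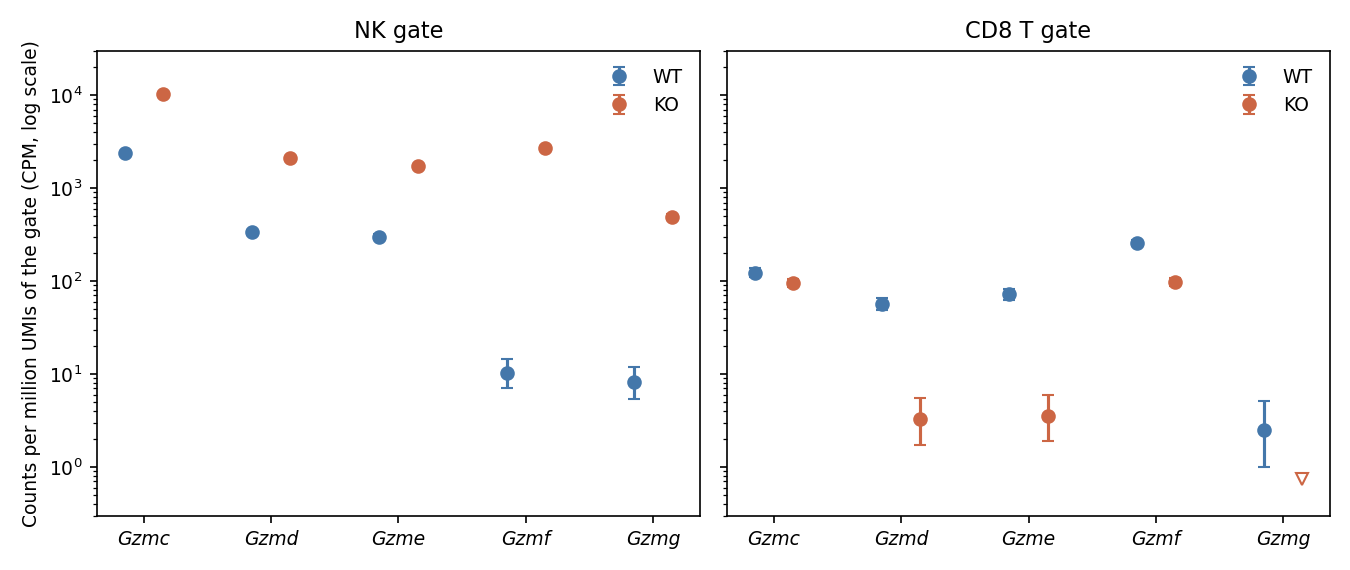
Levels of each member in the NK and CD8 T gates in CPM on a log axis, with 95% counting intervals; WT is blue and KO orange, 1 library each, and the open triangle for Gzmg marks the limit that a count of 0 allows. All 5 members are higher in KO in the NK gate, and in the CD8 T gate Gzmd and Gzme lie far lower in KO while Gzmc lies close to WT.

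In CD8-gated cells the same genes were scarcer, and their sum was lower in KO. Together they stood at 510 CPM (484 to 537) in WT and 199.6 (186 to 214) in KO, log2 -1.35 (-1.48 to -1.23). The ratio was -0.63 with cells thinned to 2000 UMIs before gating, under the 2-fold limit used here. Of the 4 members with at least 50 UMIs in 1 library, Gzmd, Gzme and Gzmf were at least 2-fold lower. Among all 7548 such genes of the gate 3.64% were that much lower and 2.76% that much higher. Gzmg had 7 UMIs in WT and 0 in KO and did not reach that number.

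Gzmf led the CD8-gated cells of WT, where Gzmc led the NK-gated ones. It was at 256 CPM (238 to 275) in WT and 97.9 (88.4 to 108) in KO, log2 -1.39 (-1.57 to -1.21). The highest WT cells had 120, 101 and 82 UMIs, and the highest KO cells 170, 57 and 24. The cell with 170 UMIs held 43.6% of the KO Gzmf. The ratio was -1.997 without the cell of each library with the most C to G UMIs. Those cells had 101 Gzmf UMIs in WT and 170 in KO. The ratio lay at -0.20 when cells were thinned to 2000 UMIs and then gated.

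Few molecules of Gzmd and Gzme were found in the KO CD8-gated cells. Gzmd had 159 UMIs in 17 WT cells, up to 36 in a cell, and 13 UMIs in 6 KO cells, of which 7 were in 1 cell. Its level was 56.8 CPM (48.3 to 66.3) against 3.26 (1.74 to 5.58), log2 -4.12 (-5.06 to -3.31). Gzme had 201 UMIs in 21 WT cells, up to 40 in a cell, and 14 UMIs in 4 KO cells, with 6, 5, 2 and 1. Its level was 71.8 CPM (62.2 to 82.4) in WT and 3.51 (1.92 to 5.90) in KO, log2 -4.35 (-5.25 to -3.57). The KO counts are small, and the KO shares of cells lie near those of the KO B gate, given below. For Gzmd the ratio was -2.16 when no cell was left out as a doublet.

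Gzmc in CD8-gated cells was at 123 (111 to 137) and 94.9 CPM (85.6 to 105), log2 -0.38 (-0.59 to -0.16). This difference did not keep its direction. It was 0.027 with stricter gates, 0.016 without the top 1% of cells and 0.087 with each cell weighted the same. Gzmc was found in 41 WT cells (9.88%, 7.18 to 13.2) and 90 KO cells (14.8%, 12.1 to 17.9), most of them with few molecules, since the median was 1 UMI in both libraries. Gzmg, with 4 and 3 UMIs in 2 WT cells, was 3.32-fold lower in KO when the count of 0 there was taken as 3 UMIs. The counting interval of its log2 ratio reached up to -1.04.

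The share of cells with any of the 5 genes differed less than the amount. In the NK gate it was 28.3% (24.3 to 32.6), 134 of 474 cells, in WT and 32.9% (26.7 to 39.5), 73 of 222, in KO. The log2 ratio of these shares was 0.22 (-0.12 to 0.56). In the CD8 T gate it was 16.9% (13.4 to 20.8), 70 of 415, and 18.1% (15.1 to 21.4), 110 of 608, log2 0.10 (-0.29 to 0.49). These intervals count the cells of 1 library each and do not measure the spread between animals, so they are no test of genotype. Thinning to 2000 UMIs per cell gave 22.0% and 30.2% in the NK gate, log2 0.46 (0.062 to 0.86), and 11.2% and 11.8% in the CD8 T gate. Cells with at least 3 UMIs made up 19.0% and 26.1% of the NK gate, log2 0.46 (0.044 to 0.88), and 8.92% and 7.07% of the CD8 T gate.

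B cells should lack these genes, and only the KO library gives a background from them. In the 44 WT cells of the B gate the 8 B markers summed to 390 CPM. That is below the 1709 of the LLC tumour and the 1039 of the fibroblast markers. In the 4058 KO cells the B markers summed to 4372 CPM. No C to G UMI was found in the 44 B-gated cells of WT, and 170 of the 4058 of KO had one (4.19%, 1.73% after thinning), at median depths of 29064.5 and 4421 UMIs. These KO cells carried 197 UMIs in all, 168 of them had 1 or 2, and 1 cell had 19. Macrophage-gated cells had a UMI in 3.11% of WT and 5.31% of KO cells, and none had 3 or more. The shares of both lymphocyte gates lay above these, before and after thinning, but a single UMI can be background in any cell, and cells with 3 or more are used below. The KO B-gate share of cells was 2.51% for Gzmc, 0.64% for Gzmd, 0.42% for Gzme, 0.42% for Gzmf and 0.32% for Gzmg. In KO NK-gated cells the shares were higher, at 32.0%, 18.5%, 18.0%, 13.1% and 6.31%. In KO CD8-gated cells Gzmc (14.8%) and Gzmf (5.92%) lay above the B gate. Gzmd (0.99%, 0.36 to 2.14) and Gzme (0.66%, 0.18 to 1.68) lay near it there, and Gzmg had 0 UMIs.

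**Figure D2:**
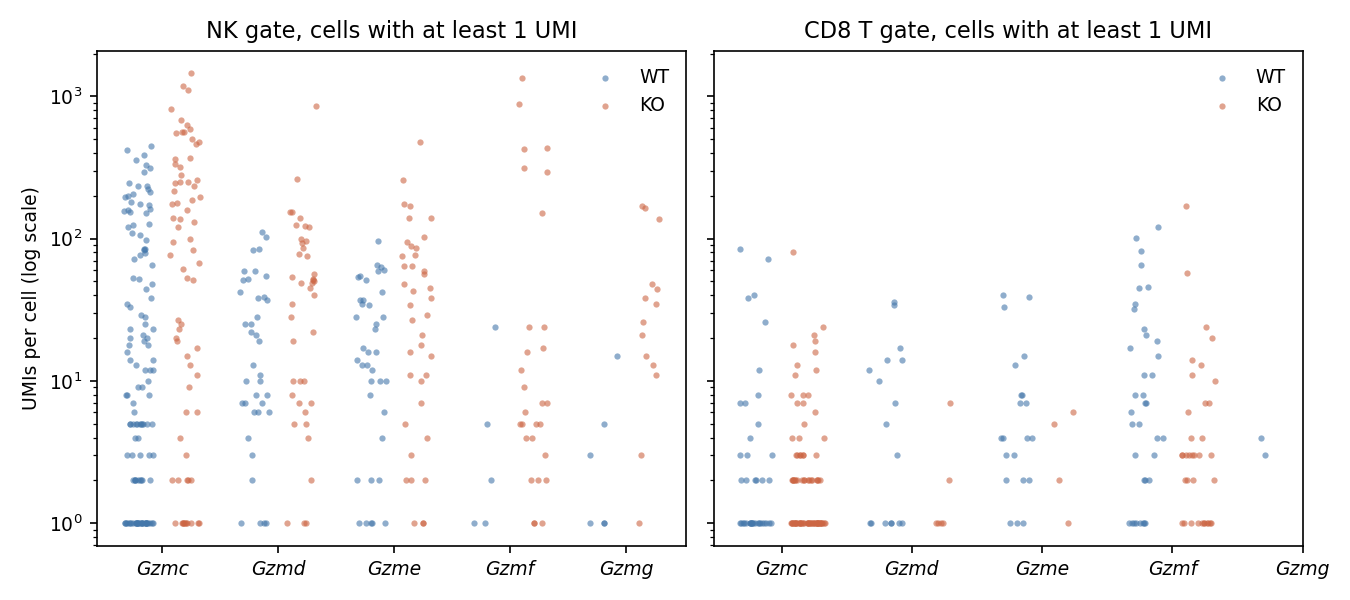
UMIs of each member per cell, on a log axis, for the gated cells with at least 1 UMI; each point is 1 cell, WT blue and KO orange, spread sideways at random. Of the Gzmf cells in the NK gate, 7 KO cells exceed 100 UMIs while the highest WT cell has 24, and in the CD8 T gate most KO Gzmc cells have 1 or 2 UMIs.

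A few cells held most of the molecules. In the NK gate the highest 10% of cells carried 94.8% of the C to G UMIs in WT and 85.2% in KO. It took 14 WT cells and 8 KO cells to reach 50% of them. The top KO cell held 4302 of 25271 UMIs, 17.0%, and the next 2296 and 1642. The top WT cell held 544 of 9760, 5.57%. Without the top cell of each library the log2 ratio was 2.37, so the KO excess does not rest on that cell.

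That top KO cell had 72318 UMIs, of which 1454 were Gzmc, 1339 Gzmf, 861 Gzmd, 479 Gzme and 169 Gzmg. It had 22 UMIs of Gzmb, 36 of Prf1, the pore-forming perforin, none of Gzma and none of Cd3d, Cd3g or Trac. In another KO cell, of 13345 UMIs, the 5 genes made up 12.3% of all RNA molecules, with 877 UMIs of Gzmf. In WT the highest share was 6.04%. The members exceeded 5% of a cell's RNA in 1 WT and 16 KO cells, and 1% in 33 and 42. Among cells with 3 or more C to G UMIs these genes held 1.24% of the RNA in WT and 4.13% in KO.

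In the CD8 T gate 5 cells of each library held at least 50% of the UMIs. The top WT cells had 179, 173 and 173 UMIs, spread over 4 or 5 members. The top KO cell had 170, all of Gzmf, beside 98 of Gzmb, and held 21.4% of the KO total. Without the top cell of each library the log2 ratio of the sum was -1.51.

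**Figure D3:**
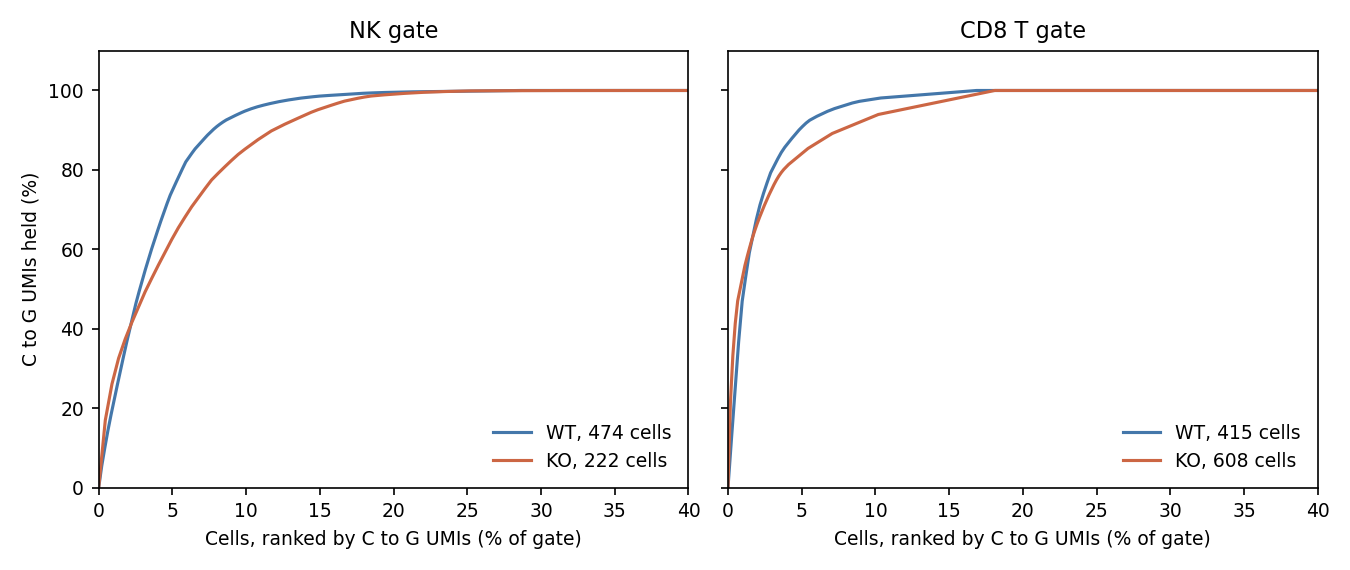
Percent of all C to G UMIs held by the highest cells, ranked by their C to G UMIs, against the percent of the gate they make up; WT blue, KO orange. In the NK gate the highest 10% of cells hold 94.8% in WT and 85.2% in KO, and the highest 5% hold 75.4% and 62.5%, against 91.0% and 83.9% in the CD8 T gate.

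The mix of members differed between the gates. Of the C to G UMIs of WT NK-gated cells 78.7% were Gzmc, 10.9% Gzmd, 9.76% Gzme, 0.338% Gzmf and 0.266% Gzmg. In KO the shares were 59.1%, 12.3%, 9.97%, 15.8% and 2.87%. In CD8-gated cells Gzmf made up 50.2% in WT and 49.1% in KO, and Gzmc 24.1% and 47.5%. The last shares lean on 1 cell, since without the top KO cell Gzmf made up 35.2% and Gzmc 60.5%. Among cells with at least 10 C to G UMIs, Gzmc led in 61 of 65 WT and 48 of 55 KO NK-gated cells. Gzmf led in 17 of 23 WT and 9 of 19 KO CD8-gated cells.

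The members were found together in the same cells in the NK gate. Of the 38 WT cells with Gzmd, 34 also had Gzme, and of the 41 such KO cells 38 did. Gzmd and Gzme share stretches of sequence, so part of this can come from how reads were assigned, which was not tested. No 50-base window in the last 500 bases of Gzmc occurs in another member, and the rest of its transcript was not searched. All 29 KO cells with Gzmf had Gzmc. All 14 KO cells with Gzmg had Gzmc, Gzmd and Gzme, and 11 had Gzmf. In WT the 6 cells with Gzmg all had Gzmd and Gzme, while none had Gzmf, and 1 of the 5 cells with Gzmf had Gzmd.

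More members were found per cell in KO NK-gated cells. At least 2 members were found in 41 of the 134 WT cells with any (30.6%) and in 48 of the 73 KO cells (65.8%), and in 33.3% and 70.7% after thinning. All 5 were found in 0 WT and 11 KO cells. In the CD8 T gate the order was the other way round, with at least 2 members in 30 of 70 WT cells (42.9%) and 21 of 110 KO cells (19.1%). After thinning the shares were 34.8% and 6.06%. Of those 70 and 110 cells, 33 and 67 had only 1 or 2 C to G UMIs, and the part of background was not tested. In this gate Gzmd and Gzme overlapped less, in 9 of the 17 WT cells with Gzmd. Of the 90 KO CD8-gated cells with Gzmc, 2 had Gzmd, 4 Gzme and 18 Gzmf. Depth moves with these counts, since cells with 3 or more C to G UMIs had median depths of 8150.5 (WT) and 9083.5 (KO) UMIs in the NK gate, against 5150.5 and 4066 in cells with none.

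**Figure D4:**
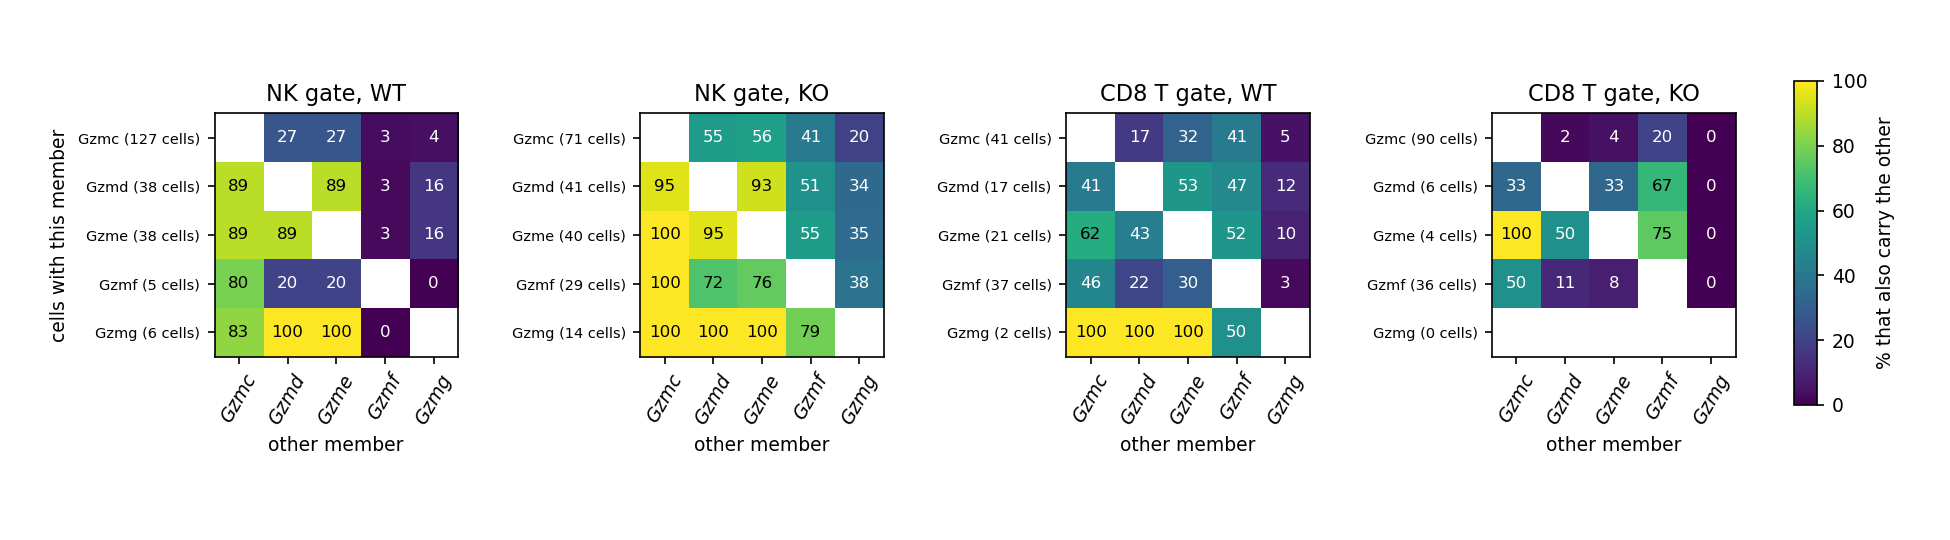
Percent of the cells with 1 member (rows, with their number) that also carry another (columns), in each gate and library; the scale runs from 0 to 100% and blank squares have no cells. The Gzmc column is bright in both NK panels, and the Gzmd and Gzmf rows are brighter in KO than in WT for the NK gate.

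The NK gate was then split within each library into cells with 3 or more C to G UMIs (90 WT, 58 KO) and cells with none (340 and 149). These are ranges of a count, not cell types. Log2 values in this comparison are cells with the granzymes over cells without. Of 13 measured genes of a list for circulating NK cells, 7 were at least 2-fold lower and 1 higher in WT, with a median of -1.71. In KO 7 of 12 were lower and 1 higher, with a median of -3.54. The median of all measured genes was -0.12 in WT and -0.22 in KO. Over all 5925 and 2804 genes with at least 50 UMIs, 9.67% and 11.98% were at least 2-fold lower, and 1.54% and 3.28% higher.

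Klf2, a transcription factor of cells that recirculate, was at 582 CPM in WT NK-gated cells without the granzymes and 133 in those with them, log2 -2.13 (-2.44 to -1.84), and at 847 and 70.3 in KO, log2 -3.59 (-4.07 to -3.15). Itga2, the CD49b integrin that marks conventional NK cells, was at -2.29 (-3.04 to -1.61) in WT and -4.56 (-7.64 to -2.64) in KO. Klra8, the Ly49H receptor, was at -1.71 (-2.10 to -1.34) and -4.17 (-5.10 to -3.38). Eomes, the T-box factor of conventional NK cells, was at -1.96 (-2.37 to -1.57) and -3.16 (-3.92 to -2.48). Tbx21, the related T-box factor T-bet, was at -0.0012 (-0.32 to 0.31) and -0.35 (-0.89 to 0.17).

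Of 12 measured genes of a list for ILC1 and tissue residence 5 were at least 2-fold higher in WT and none lower, with a median of 0.96, and in KO 3 of 11 were higher and none lower, with a median of 0.025. Itga1, the CD49a integrin, was at 28.05 and 125 CPM in WT, log2 2.16 (1.68 to 2.65), and at 14.6 and 154 in KO, log2 3.39 (2.49 to 4.44). Cxcr6, a chemokine receptor of resident lymphocytes, was at 2.45 (1.72 to 3.22) in WT.

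Gzma and Gzmb differed in opposite directions. Gzma was lower where C to G granzymes were present, at 2644 and 1214 CPM in WT, log2 -1.12 (-1.22 to -1.02), and at 2932 and 531 in KO, log2 -2.47 (-2.64 to -2.30). Gzmb, the next gene on the chromosome, was higher, at 346 and 1096 CPM in WT, log2 1.66 (1.52 to 1.81), and at 392 and 2145 in KO, log2 2.45 (2.27 to 2.64). Prf1 was at 0.58 (0.42 to 0.75) and 0.67 (0.47 to 0.87). Ccl5, a chemokine of killer lymphocytes, was at -2.31 (-2.43 to -2.19) in WT and -4.16 (-4.39 to -3.93) in KO.

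Genes of dividing cells differed between the libraries in this comparison. Of the cell-cycle list 10 of 24 measured genes were at least 2-fold higher in WT cells with the granzymes and none lower, while in KO 1 of 22 was higher and 4 lower. Of the transcription factors of killer lymphocytes none was at least 2-fold higher, and 3 of 14 in WT and 6 of 12 in KO were lower, among them Zeb2, a factor of mature NK cells, at -1.31 (-1.62 to -1.02) and -2.44 (-3.06 to -1.88). Of the effector cytokines and chemokines 3 of 11 were higher in each library, and 6 in WT and 5 in KO lower. Ifng, which encodes interferon gamma, was at 1.23 (0.95 to 1.51) in WT and -0.48 (-1.04 to 0.06) in KO.

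Inhibitory receptors were among the genes with the highest ratios. Pdcd1, which encodes PD-1, was at 7.61 and 134 CPM in WT, log2 4.14 (3.37 to 4.998), and at 5.32 and 129 in KO, log2 4.60 (3.19 to 6.51). Lag3 was at 2.19 (1.35 to 3.06) and 4.05 (2.61 to 5.98), and Ctla4 at 2.16 (1.84 to 2.49) and 1.20 (0.61 to 1.81). Of this list 4 of 11 genes in WT and 4 of 9 in KO were at least 2-fold higher, and 1 and 2 lower. By the fixed ranking, Gstp3, Ifitm1, Sema6d, Dscam, Slc24a3, Myo10, Serpinb1a and Mki67 stood beside Pdcd1 and Ctla4 in WT. All 10 were also higher in KO, from 0.69 for Mki67 to 4.60 for Pdcd1.

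The lower end of that ranking in WT held genes of stroma and myeloid cells, Tnc, Cxcl1, Sparc, Serpinf1, Ccl2, Eps8, Cald1, Col1a2, Cp and Lyz1. In KO Cxcl1 (-4.57), Ccl2 (-2.37) and Cp (61 and 0 UMIs) were lower too. Sparc (-0.86, -1.93 to 0.13), Serpinf1 (-0.62, -1.97 to 0.63) and Cald1 (-0.32, -1.45 to 0.75) differed less, and Eps8 was at 1.13 (-0.14 to 2.49). Tnc, Col1a2 and Lyz1 had at most 2 KO UMIs on either side. The 201 WT UMIs of Tnc lay in 0.59% of the cells without the granzymes. Markers of other cell types differed with the granzymes, in both directions. The 12 macrophage markers summed to 3086 CPM in WT NK-gated cells without and 360 in those with the granzymes, and to 1411 and 686 in KO. The 5 fibroblast markers summed to 466 and 21.7 CPM in WT. No macrophage marker was at 0 in either. The 5 CD4 T markers, which include Ctla4, summed to 146 CPM without and 494 with the granzymes in WT, and to 162 and 286 in KO, with Foxp3 at 0 in all 4 groups. The 10 CD8 T markers summed to 602 and 925 in WT, and to 697 and 1013 in KO, with Cd3e at 0 by the gate. Between the libraries, the 5 plasma-cell markers summed to 102 CPM in WT and 1615 in KO in the whole NK gate, and to 70.3 and 4639 in the CD8 T gate. The part of any of this RNA in the ratios of the granzymes, or in those of Pdcd1, Lag3 and Ctla4, was not tested. With cells that carry C1qa, Csf1r, Cd79a or Ms4a1 left out, the KO over WT ratio of the 5 genes was 2.27 in the NK gate and -1.53 in the CD8 T gate.

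In the CD8 T gate the cells with 3 or more C to G UMIs (37 WT, 43 KO) had more RNA of Gzmb and of dividing cells than the cells with none (345 and 498). Gzmb was at 569 and 1841 CPM in WT, log2 1.69 (1.56 to 1.83), and at 661 and 3746 in KO, log2 2.50 (2.40 to 2.60). Of the cell-cycle list 9 of 26 measured genes in WT and 22 of 30 in KO were at least 2-fold higher, none lower, with medians of 0.77 and 1.45 against -0.055 and -0.045 over all genes. Over all genes with at least 50 UMIs, 1.53% and 3.75% were at least 2-fold higher, and 6.17% and 9.94% lower. Mki67, a marker of dividing cells, was at 1.52 (1.18 to 1.85) and 2.22 (1.92 to 2.52).

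Irf8, an interferon regulatory factor that effector T cells also carry, was at 1.19 (0.97 to 1.39) in WT and 2.17 (1.86 to 2.47) in KO. Genes of naive and recirculating cells were lower. Klf2 was at -2.52 (-3.44 to -1.73) and -2.65 (-3.19 to -2.15), Tcf7, a factor of naive and memory T cells, at -3.46 (-5.75 to -1.89) and -2.87 (-4.00 to -1.93), and S1pr1, the receptor that lets lymphocytes leave tissue, at -4.29 (-9.61 to -1.78) and -3.35 (-5.23 to -1.98). The others were Hspa1b and Hspa1a, at -5.41 and -5.19 in KO, Penk, with 24 and 0 KO UMIs, and genes that did not repeat in KO. Of the latter Pou2f2 was at 0.27 (-0.46 to 0.94) in KO, Ino80d at -0.29 (-1.20 to 0.50), Cxcr3 at -0.18 (-0.73 to 0.33) and Ccl1 at 2.36 (1.26 to 3.40). Gzma did not follow the NK gate here, at 0.41 (-0.01 to 0.81) in WT and 1.72 (1.57 to 1.87) in KO. Plcl1 and the granzyme-inhibiting serpin Serpinb9b, higher in WT at 3.49 (2.84 to 4.18) and 2.35 (1.77 to 2.93), were not higher in KO. Plcl1 was at -0.25 (-1.93 to 1.06) there, and Serpinb9b had 1 UMI in the whole KO gate against 162 in WT.

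**Figure D5:**
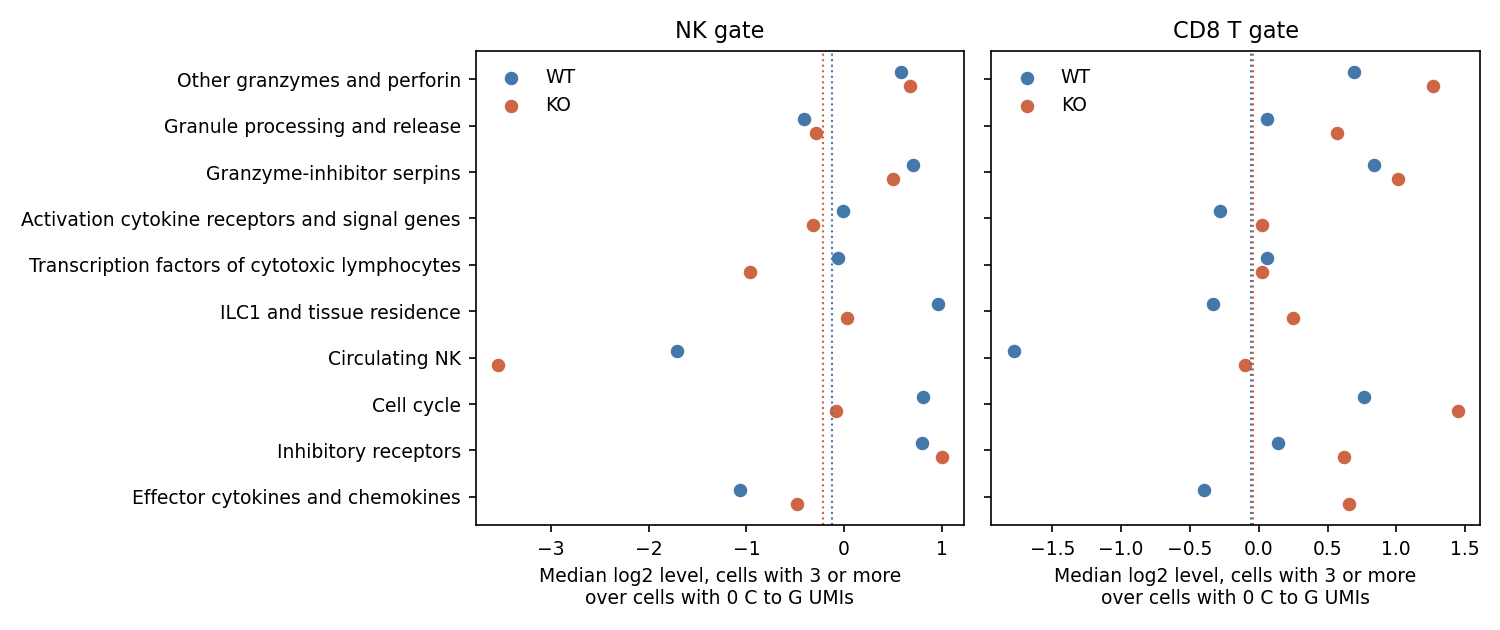
Median log2 ratio of each gene list, cells with 3 or more over cells with 0 C to G UMIs, within each gate and library; dotted lines are the medians of all measured genes. The circulating NK list lies lowest in both libraries of the NK gate, and in the CD8 T gate the serpin list lies highest in WT (0.84) and the cell-cycle list highest in KO (1.45).

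The genes most like the members across cells were ranked by Pearson correlation of log(1 + UMIs per 10000) with the summed members over the 474 WT NK-gated cells, among 8449 genes. Gstp3 (0.53, 0.38 in the 222 KO cells), Sema6d (0.52, 0.44), Myo10 (0.52, 0.58), Dscam (0.51, 0.52) and S100a4 (0.48, 0.61) came first, followed by Ctla4, Slc24a3, Pglyrp1, Styk1 and Adgrg3. Gzmb was at 0.24 and 0.40, rank 79. Gzma was at -0.37 and -0.39, rank 8448, and Dusp2 at -0.08 and 0.06. In the 415 WT CD8-gated cells Plcl1 (0.42, -0.01 in 608 KO cells), Gzmb (0.38, 0.42), Styk1 (0.32, 0.20), Serpine2 (0.31, 0.11) and Myo10 (0.31, 0.17) led, before Gipc2, Fcrl6, Filip1, Irf8 and Rhoq. Cells of a library share its preparation, and depth differs among them, so these values are a description. Dusp2 RNA in WT NK-gated cells was at 738 CPM (679 to 800) with and 893 (853 to 934) without the granzymes.

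Between the libraries, the other granule genes differed less than the members in the NK gate. Gzma was at 2279 and 1943 CPM, log2 -0.23 (-0.29 to -0.17), Gzmb at 569 and 1120, log2 0.98 (0.88 to 1.07), and Prf1 at 457 and 598, log2 0.39 (0.26 to 0.51). Of 4 measured genes of that list 1, Gzmm, was at least 2-fold higher in KO, from 22 and 26 UMIs. None of the 13 measured granule processing genes was at least 2-fold higher and 1 was lower. In the CD8 T gate Gzma was at 147 and 718 CPM, log2 2.28 (2.13 to 2.44), Gzmb at 0.44 (0.36 to 0.51) and Prf1 at -1.15 (-1.33 to -0.96). Of the granzyme-inhibiting serpins there, 3 of 7 were at least 2-fold lower, with Serpinb9 at -1.26 (-1.40 to -1.13) and Serpinb6b at -1.19 (-1.34 to -1.03). Of 13 inhibitory receptors 7 were at least 2-fold lower, with a median of -1.23. In the NK gate no serpin was at least 2-fold higher, 1 of 6 was lower, and Serpinb9 was at 0.011 (-0.11 to 0.13).

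Outside both gates the direction followed the NK gate in T cells that bear NK receptors, which fail the NK gate by their Cd3e. In these 82 WT and 49 KO cells the 5 genes had 124 and 1205 UMIs, 238 and 3200 CPM, log2 3.75 (3.48 to 4.02). The 5 plasma-cell markers summed to 69.2 CPM in the WT and 32739 in the KO cells of this gate, and to 46.8 and 128348 CPM in the 9 WT and 8 KO cells with 3 or more C to G UMIs, and their part in this ratio was not tested. The top KO cell held 442 of the C to G UMIs, and 4 KO cells had 100 or more against none in WT. Gzmf had 9 and 267 UMIs, 252 of the latter in 1 cell. CD4 T-gated cells held 11 and 41 UMIs, and gamma-delta T-gated cells 8 and 6. Over all kept cells the 5 genes were at 146 (143 to 148) and 347 CPM (343 to 351), log2 1.25 (1.22 to 1.28). The NK gate held 64.6% of the C to G UMIs of WT and 78.8% of those of KO, and the CD8 T gate 9.46% and 2.48%.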

How the data were processed

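Both libraries are 10x Chromium 3′ libraries, version 3.1 kit, per the labels' protocols. The authors deposited UMI counts for each gene in each barcode, not normalized. The submitters' processing notes list mm10, Seurat (4.0.3, 4.0.4) and Cell Ranger (6.0.1), but per the file headers the matrices came from Cell Ranger version 8.0.1. How strand and reads shared by several genes were handled is not stated in these sources.

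Cells needed at least 200 detected genes and no more than 20% of UMIs from mitochondria. In each library the highest Scrublet scores (scanpy 1.11.5) were left out at 0.8% per 1000 cells, 763 WT (7.81%) and 1277 KO cells (10.1%). The automatic threshold called 128 and 0. UMIs were summed per gate and divided by the gate's total. Intervals are exact (Poisson for levels, conditional binomial for ratios, Clopper-Pearson for shares), except the normal approximation for ratios of shares. Only those of ratios of levels were tried on simulated data. The simulated counts were Poisson and do not carry the spread between cells. A count of 0 allows 3 UMIs. Named genes were the members, the 10 genes most correlated in WT, and the 10 per direction whose interval lay farthest from 0 between cells with 3 or more and with 0 C to G UMIs (at least 50 UMIs on 1 side), with list genes of at least 20 UMIs. Members, lists and rules were chosen with earlier results of these data known. Depth per cell and the number of cells limit the precision. The alternatives were other doublet, cell and gate filters, thinning, other totals and weights, and leaving out top cells. Top cells were those with the most C to G UMIs, also where the ratio is of a single member.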

Additional observations from a re-analysis of the deposited data

Results flagged for a closer look

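The ratio of KO over WT had opposite directions in the NK and CD8 T gates. For the 5 genes together it was 2.49 and -1.35 on the log2 scale, 3.84 apart. The gap was 2.45 for Gzmc, 6.78 for Gzmd, 6.87 for Gzme and 9.43 for Gzmf. For Gzmg, taken at the bound that 0 KO UMIs allow in the CD8 T gate, it was 7.65. These differences were not tested, since each genotype is 1 library, and the CD8 T value of Gzmc did not keep its direction.

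Cells that no gate took also held RNA of these genes, 3621 UMIs in WT and 4447 in KO, or 24.0% and 13.9% of the libraries' C to G UMIs. There 28 WT and 45 KO cells had 3 or more. Of these, 26 and 37 had a UMI of Klrd1 or Nkg7, genes of killer lymphocytes. A UMI of Cd3e was in 2 and 6, and one of a T-cell gene in 19 and 29. The 10 CD8 T markers summed to 1491 and 1762 CPM in them, against 673 and 834 in the NK gate. The 14 NK markers summed to 7324 and 6891, against 9957 and 9514. The highest of the cells that no gate took had 848 and 1230 C to G UMIs. Gzmf had 248 UMIs in WT and 1198 in KO there, log2 2.52 (2.32 to 2.72), but 2 KO cells held 641 and 475 of them and 2 WT cells 116 and 106. Gzmc was at 0.037 (-0.045 to 0.12). The cells left out as doublets held 100 and 693 UMIs in the NK gate and 156 and 227 in the CD8 T gate.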

How the results depend on the processing

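The level of the 5 genes was higher in KO in the NK gate under all 12 alternatives and lower in the CD8 T gate under all 11, and the cause of each shift was not tested. In the NK gate the log2 ratio was 2.54 with no doublet removal, 2.57 with the automatic doublet threshold, 2.17 with stricter gates, 2.27 without cells that carry macrophage or B markers, 2.02 thinned after gating, 1.66 thinned before gating, 2.55 over a total without mitochondrial, ribosomal protein, Ig and haemoglobin genes, and 1.92 with each cell weighted the same. In the CD8 T gate it was -1.14 with no doublet removal, -1.09 with stricter gates, -1.53 without cells that carry those markers, -0.89 thinned after gating, -0.63 thinned before gating, -1.54 without the top 1% of cells and -1.02 with each cell weighted the same. Of 2 alternatives chosen after seeing the data, leaving out the single top cell gave 2.37 and -1.51, and leaving out NK-gated cells with a T-cell gene gave 2.58. In the NK gate the log2 ratio of the share of cells with a C to G UMI was 0.22 as reported. It was 0.46 when cells were gated and then thinned, and 0.46 for cells with at least 3 UMIs. The values of this share stayed inside the counting interval of the value reported for each gate. The exception was -0.33 in the CD8 T gate for cells with at least 3 UMIs, where the sign differs from the 0.10 reported. With no doublet removal the sign in that gate differed too, at -0.025, inside the interval. Gzmc in the CD8 T gate was between -0.84 and 0.087. No paired analysis was possible because each genotype is 1 library. Depth limits the CD8 T values of Gzmd, Gzme and Gzmg, which rest on 13, 14 and 0 KO UMIs.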
